A study of Mus musculus with 2 samples.

Results

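The regions described here are the dense clusters of distal accessible chromatin in the mouse erythroid line G1E-ER4 after estradiol. They were chosen from the positions of the authors' peaks. Overlapping peaks of the conservative list, the one made by comparing the true replicates by irreproducible discovery rate (IDR), were merged into 20080 regions. A region was distal where its strongest summit lay more than 1 kb from every transcription start site (TSS) of a protein-coding gene, which held for 10583 regions. Distal summits within 12500 bp of the next were joined, and groups of 4 or more were kept, which left 776 regions in 165 clusters, or 7.33% of the distal regions. The other distal regions were 3469 in 1232 pairs and 335 triplets, and 6338 that stood alone.

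The assay was ATAC-seq, which marks open DNA by letting a transposase cut it and add adapters, and a single group of 2 libraries was made. The cells are labelled as male, of strain C57BL/6J, and as having GATA1 function restored: the line descends from Gata1-null progenitors and carries GATA1 fused to the hormone-binding part of the estrogen receptor. Each library was made from 50000 cells after 24 hours in 17Beta-estradiol at 10 nM, and no cells without estradiol were analysed here, so no value below is a response to the hormone. The libraries are labelled biological replicates 1 and 2, with nothing said of separate cultures, so the spread between them may be partly technical. Read depth is unknown; after merging, the IDR-thresholded list of replicate 1 held 14012 regions, of which 5775 were distal, and that of replicate 2 held 15564, of which 6920 were distal.

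Enhancers are stretches of DNA that bind transcription factors and raise the output of genes that may lie far away. Neighbouring enhancers are often counted together as an enhancer cluster or, where activator or histone mark signal is very high, as a super-enhancer. In erythroid cells the locus control region of the beta-globin genes is the classic case: several separate accessible sites that together are needed for high globin expression. GATA1 binds the letters GATA in such elements, frequently in a complex with TAL1, LMO2 and LDB1 that also contacts the E-box letters CTG a short distance away. KLF1 and related factors bind C-rich CACCC-type boxes, and CTCF binds a longer motif at insulators and loop anchors. No binding or histone mark data were analysed here, so the clusters are described by accessibility and sequence only, and the name super-enhancer is not used for them.

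The E-box and GATA composite is shown here in the strongest composite-bearing member of each of 10 clusters, taken in order of size. These 10 were chosen for holding it. It was in 18.9% of all members, against 18% of all distal regions, so it does not set the clusters apart. The composite was searched on both strands as CTG, 7 to 9 bases, then AGATA or TGATA, within 100 bp on each side of the summit. Each sequence is read 5′ to 3′ on the strand of the composite from the RefSeq copy of the GRCm38 (mm10) genome, with 50 bases on each side, and capitals mark the composite. The Lrrc74a/Irf2bpl sequence is chr12:86834496-86834612 on the plus strand, between genes, and that of Gm47791/Agfg1 is chr1:82825418-82825533 on the plus strand, also between genes. The Glrx5 sequence is chr12:105039135-105039250 on the plus strand, in an intron of Glrx5, and that of Mreg/Pecr is chr1:72236932-72237047 on the minus strand, between protein-coding genes. The Jade1 sequence is chr3:41533727-41533842 on the plus strand, between genes, and that of Kcnn4/Smg9 is chr7:24377156-24377270 on the minus strand, in an intron of Kcnn4. The Plxnc1 sequence is chr10:94932077-94932191 on the plus strand and the Gm20388/Zfpm1 sequence is chr8:122321779-122321894 on the plus strand, both in introns of the genes named. The Dapp1 sequence is chr3:137958025-137958140 on the plus strand and the Kalrn sequence is chr16:34036793-34036907 on the minus strand, again in introns of those genes.
Lrrc74a/Irf2bpl: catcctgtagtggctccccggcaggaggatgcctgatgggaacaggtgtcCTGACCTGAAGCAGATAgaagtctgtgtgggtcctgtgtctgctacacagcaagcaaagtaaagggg
Gm47791/Agfg1: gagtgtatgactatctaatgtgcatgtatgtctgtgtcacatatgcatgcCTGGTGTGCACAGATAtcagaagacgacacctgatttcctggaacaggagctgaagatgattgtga
Glrx5: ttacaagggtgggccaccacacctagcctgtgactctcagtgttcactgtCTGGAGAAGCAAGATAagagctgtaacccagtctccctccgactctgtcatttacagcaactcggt
Mreg/Pecr: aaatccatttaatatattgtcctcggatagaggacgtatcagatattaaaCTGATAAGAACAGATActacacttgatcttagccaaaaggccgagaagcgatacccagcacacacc
Jade1: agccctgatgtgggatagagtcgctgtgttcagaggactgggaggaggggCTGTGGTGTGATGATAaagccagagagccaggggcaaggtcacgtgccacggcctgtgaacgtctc
Kcnn4/Smg9: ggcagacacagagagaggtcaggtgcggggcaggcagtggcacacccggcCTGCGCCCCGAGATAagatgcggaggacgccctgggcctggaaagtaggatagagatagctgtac
Plxnc1: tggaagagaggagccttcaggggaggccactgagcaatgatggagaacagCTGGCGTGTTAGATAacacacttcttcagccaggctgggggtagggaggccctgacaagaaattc
Gm20388/Zfpm1: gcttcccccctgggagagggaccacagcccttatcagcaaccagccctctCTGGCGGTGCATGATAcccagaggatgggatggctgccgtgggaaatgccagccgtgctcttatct
Dapp1: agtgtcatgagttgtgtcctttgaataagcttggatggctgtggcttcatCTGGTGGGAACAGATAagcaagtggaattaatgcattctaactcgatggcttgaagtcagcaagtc
Kalrn: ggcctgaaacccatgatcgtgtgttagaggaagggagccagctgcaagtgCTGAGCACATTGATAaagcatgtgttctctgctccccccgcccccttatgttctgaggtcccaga
Of these composites 6 have 8 bases between CTG and the A or T before GATA, 3 have 7 and 1 has 9. In 7 of the 10 the GATA core runs on as GATAA or GATAG, and all 10 lie within 90 bp of the summit. The Kcnn4 member had the highest −log10 p of the 10 in both replicates, 84.3 in replicate 1 and 88.0 in replicate 2. The Kalrn member stood at the other end, with 14.6 and 14.9, the lowest of the 10. The Mreg/Pecr sequence differs from the others in kind: all of the 31-base words of its window occur elsewhere in the genome, and the region overlaps Gm23472, an annotated small nuclear RNA (snRNA) gene.

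The clusters took up a small and compact part of the genome. Of 10562 pairs of neighbouring distal summits on the same chromosome, 2513 (23.8%) were within that joining distance, and the median gap was 45.04 kb. Inside the clusters the median gap was 5.27 kb, with quartiles of 2.36 and 8.24 kb. Cluster spans, from first to last summit, had a median of 18.3 kb and ran from 2.03 to 50.97 kb. Together they covered 3331 kb, or 0.122% of the genome. Of the 165 clusters 96 had 4 regions, 41 had 5, 16 had 6, 8 had 7, 2 had 8, and 1 each had 9 and 10. The median distance from a cluster to the next distal region outside it was 30.8 kb. Close to the joining distance, 11 clusters held an inner gap over 12 kb and 16 had an excluded distal region within 15 kb. The nearest excluded region was 12.522 kb away. Over a wider margin, 131 of the 611 inner gaps lay between 8.84 kb and the joining distance. Pair counts showed no break there, with 585 neighbouring pairs in the bin just below that distance and 641 in the bin just above. The number of clusters depended strongly on it, with 18 at 5 kb and 330 at 20 kb. At the edge of the promoter rule, 28 members (3.61%) had their nearest start site at 1 to 1.5 kb, the closest at 1.05 kb.

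**Figure D1:**
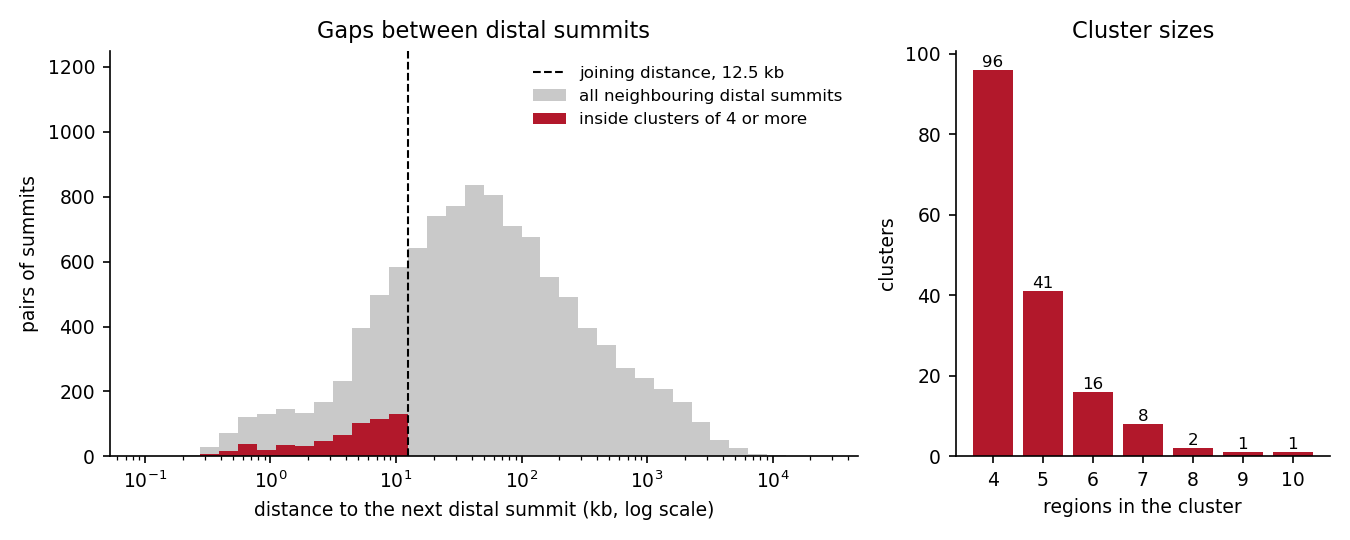
The left panel counts neighbouring distal summits by the distance between them (kb, log scale), in grey for all pairs and in red for pairs inside clusters, with the joining distance dashed. The right panel counts clusters by their number of regions, of which 96 had 4.

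Chromosome 12 had the highest share of its distal regions in clusters, 76 of 545 (13.9%) in 15 clusters, among them Glrx5 and Lrrc74a/Irf2bpl. Chromosome 11 followed with 9.88% in 14 clusters and chromosome 7, which carries the beta-globin locus, had 9.36% in 16. The lowest shares on the autosomes were 3.64% on chromosome 13 and 3.68% on chromosome 2. Chromosome X held 1 cluster. Introns of protein-coding genes held 394 members (50.8%, 95% Wilson interval 47.3 to 54.3), against 50.5% of all distal regions, intergenic sequence 343 (44.2%, against 43.02%) and exons 39 (5.03%, against 6.49%). In 52 clusters every member lay inside the same gene or genes, as in Plxnc1, Zfpm1 and Dapp1, and in 51 every member was intergenic. A protein-coding start site stood inside the span of 59 clusters, and 36 spans held a promoter region of the conservative list, 48 such regions in all.

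Members had a lower median signal than other distal regions and a higher median −log10 p. The signal is the authors' enrichment value for a peak, on a scale that the sources used here leave unstated, and −log10 p is the strength of the peak call. Since peak calls and signal chose the members and their summits, these levels are a description with no test. The median signal was 7.94 in clusters, 8.80 in pairs and triplets and 9.88 in single regions, while the median −log10 p ran the other way, 35.4, 33.7 and 31.6. Each replicate's own ranked list gave the same order. In replicate 1 the median signal was 7.08 in clusters, 7.47 in pairs and triplets and 7.99 in single regions, and the median −log10 p was 18.3, 17.3 and 16.2. In replicate 2 the signal was 7.32, 7.86 and 8.47 and the −log10 p 20.6, 19.6 and 18.2. For signal, the means of the replicate medians were 7.20 ± 0.170 in clusters and 8.23 ± 0.341 in single regions (SD, n = 2), and the quartiles of the classes overlapped widely. For −log10 p they were 19.5 ± 1.64 and 17.2 ± 1.46. Replicate 2 was higher than replicate 1 in every class for both values. These SDs thus hold a shift shared by the classes and do not measure the spread of the gap between them. Only 166 members (21.4%) had a signal above 10.7, the median of the whole conservative list, against 36.5% of the other distal regions.

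**Figure D2:**
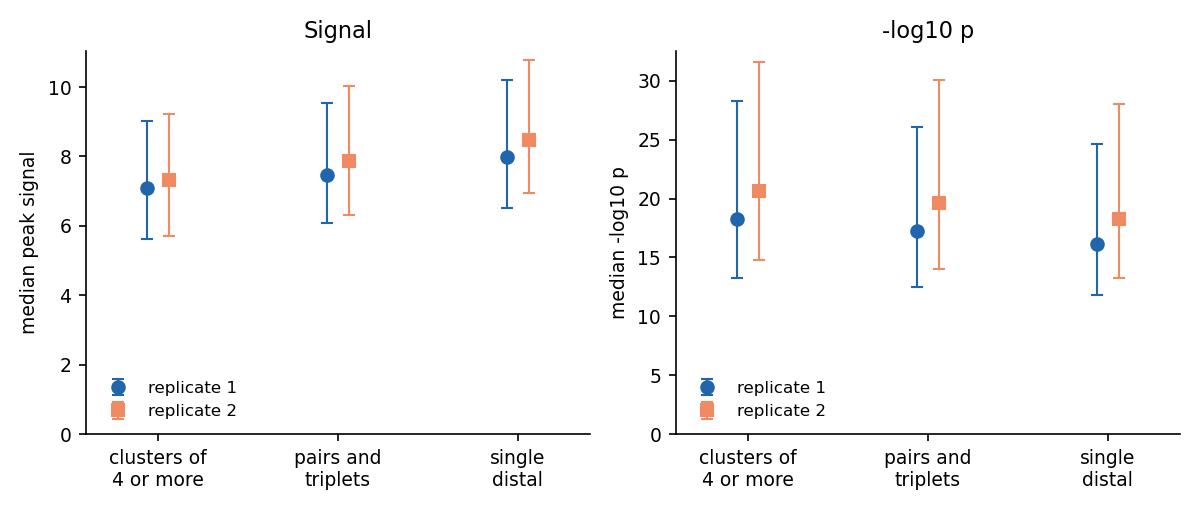
Median peak signal (left) and median −log10 p (right) of distal regions by class in replicate 1 (blue circles) and replicate 2 (orange squares), with bars from the lower to the upper quartile of regions. In both replicates clustered regions had the lowest median signal, 7.08 and 7.32, and the highest median −log10 p, 18.3 and 20.6.

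Members of the same cluster differed in signal. The strongest member carried a median of 31.3% of the summed signal of its cluster, between 14.3% and 52.7% (an even share would be lower in a larger cluster), and exceeded the weakest by a median ratio of 2.22. Member signal ran from 2.32 to 38.3. In addition, 88 clusters held further distal regions, 153 in all, that were present only in the looser replicated list of the authors and not counted as members.

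The replicates detected the same members with different completeness. Of the 776 members, 433 (55.8%) were in the thresholded list of replicate 1 and 509 (65.6%) in that of replicate 2, against 51.1% and 58.8% of all distal regions. In both lists were 371 (47.8%, 44.3 to 51.3), against 42.7% of all distal regions, and in neither 205 (26.4%), against 32.9%. Replicate 1 alone held 62 (7.99%, against 8.35%) and replicate 2 alone 138 (17.8%, against 16.1%). These calls belong to the same contrast that chose the members, so nothing is read from the difference. The ranked lists, which go below the threshold, held 750 members (96.6%) in replicate 1 and 757 (97.6%) in replicate 2, close to the 96.2% and 97.8% of all distal regions. Across the 735 members in both ranked lists, which share the libraries and their depth and are not independent, Spearman's rho between the replicates was 0.879 for signal and 0.862 for −log10 p. Over the other 9265 distal regions it was 0.837 and 0.846.

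**Figure D3:**
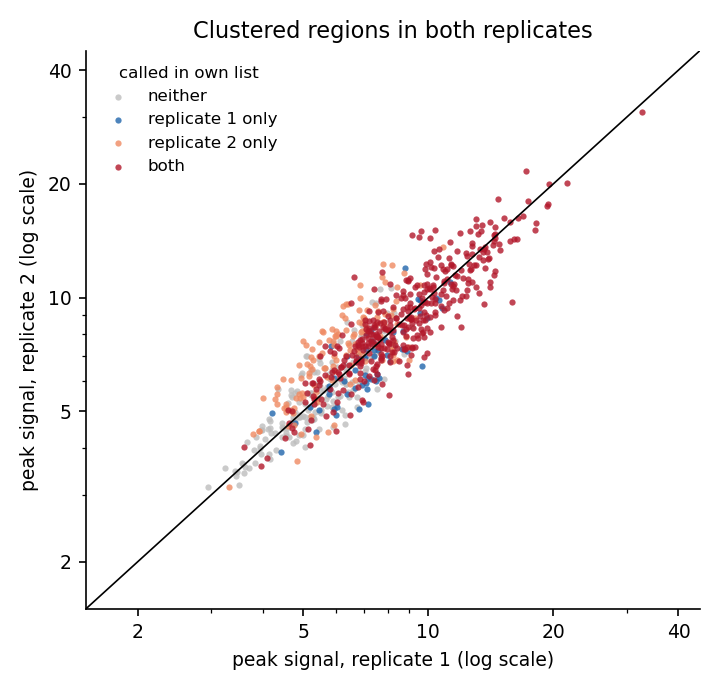
Peak signal of the 735 members found in both ranked lists, replicate 1 against replicate 2, both on log scales, coloured by the thresholded list that held the region; the line marks equal values. Points lie along the line (rho 0.879), and members in both thresholded lists reach the highest signals.

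Each replicate taken alone gave fewer clusters. Built by the same rule from the list of replicate 1 alone there were 35 clusters with 162 regions, 2.81% of its distal regions, and from the list of replicate 2 alone 65 with 292 regions, 4.22%. A cluster of the conservative list was found again in replicate 1 in 29 cases and in replicate 2 in 54, and 21 were found in both. Those 21 held 129 members and included Lrrc74a/Irf2bpl, Glrx5, Kcnn4/Smg9, Plxnc1, Spen and Gypc. Also among the 21 were Mreg/Pecr, Eapp and Tyrp1, described below for snRNA genes, repeated sequence or mitochondrial words. The 21 did not include Zfpm1, Lmo2, Jade1 or the beta-globin cluster, which neither replicate alone rebuilt. In neither replicate alone were 103 clusters, with 448 members, rebuilt. Every member was called in both lists in 4 clusters, Mreg/Pecr, Eapp, Chd2 and Dhrs3, of which the last pair was picked out after its values were seen. No member was called in both in 11 clusters.

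GATA letters were common in the clusters but close to their level in other distal regions. A GATA motif, the letters GATA with A or T before them and A or G after them on either strand, was within 100 bp of the summit in 415 members (53.5%, 49.96 to 56.96), against 50.9% of all distal regions, 49.7% of single distal regions and 13.0% of promoter regions. Windows of the same width 1 kb to either side of the members held it in 26.1%. Around member summits GATA matches peaked at 22.8 per 100 regions in the 50 bp just before the summit, against 8.51 in the bin 450 to 500 bp before it. The composite, which overlaps the GATA motif by construction, was in 147 members (18.9%, 16.3 to 21.9), against 18% of all distal regions, 2.71% of promoter regions and 4.44% of the flanking windows of members.

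The spacing inside the composite was uneven. With 8 bases between CTG and AGATA or TGATA it occurred in 71 members (9.15%, 7.32 to 11.4), and with 7 bases in 56 (7.22%, 5.60 to 9.26). At the neighbouring spacings of 6 and 9 bases it was in 9 (1.16%) and 28 (3.61%), and at 10 and 11 bases in 2.06% each. The shares did not fall off evenly with distance from 8: at 12 bases it was 37 members (4.77%), at 4 bases 30 (3.87%), at 5 bases 24 (3.09%) and at 13 bases 23 (2.96%), so the spacings of 4 and 12 bases were more frequent than 9, which counts as part of the composite. The spacing of 8 bases was also the most frequent in single distal regions, at 9.29%. Members with a composite had no higher median signal than the others: it was 7.84 with a composite, 7.85 with a GATA motif only and 7.98 with neither. Replicate 1 gave 7.16, 6.999 and 7.15 and replicate 2 gave 7.32, 7.26 and 7.41, so the kind of member with the highest median differed between the replicates. The median −log10 p was highest with a composite in both replicates: 19.4 with a composite, 17.6 with a GATA motif only and 18.2 with neither in replicate 1, and 21.5, 20.6 and 20.4 in replicate 2. Replicate 2 was higher than replicate 1 for every kind of member. The difference between the replicates thus does not measure the spread of these gaps, which were not tested.

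Composites were spread over many clusters. At least 1 was in 100 of the 165 clusters (60.6%), at least 2 in 38 and at least 3 in 7, and 158 clusters had a GATA motif in at least 1 member. All members had a GATA motif in 14 clusters and none in 7. The strongest member of the cluster held a composite in 35 clusters (21.2%) and a GATA motif in 92 (55.8%). Over all members the shares were 18.9% and 53.5%, and over all distal regions 18% and 50.9%. A cluster has at least 4 members, so many would hold a composite at the share over all distal regions. Counts expected at that share were not worked out, and nothing particular to clusters is read from the counts seen. Glrx5 led with 5 composites in 8 members, and Zfpm1 and Dapp1 had 3 each. The remaining clusters with 3 were Nadk2, Inpp5b, Gm9844 and Spns2, picked out here for that count.

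KLF and CTCF matches differed more between clusters and single regions, in opposite directions. A KLF-type box, CCNCNCCC on either strand, was in 307 members (39.6%, 36.2 to 43.0), against 33.9% of all distal regions, 31.8% of single ones and 62.2% of promoter regions. By the number of regions joined, the share was 31.8% for 1, 36.3% for 2, 36.9% for 3, 38.5% for 4, 36.6% for 5 and 44.9% for 6 to 10. The CTCF motif was in 32 members (4.12%, 2.94 to 5.76), against 8.37% of all distal regions, and its share was 9.44% for 1 region, 7.79% for 2, 6.37% for 3, 4.69% for 4, 5.37% for 5 and 1.60% (3 of 187) for 6 to 10. Only 27 clusters held a CTCF match, while 142 held a KLF match. G and C content went with class as well: its median in the same window was 53.2% in clusters, 52.2% in pairs and triplets and 51.2% in single regions. Its part in the KLF difference was not tested. Windows 1 kb to either side held a KLF box in 20.1% for clusters, 18.4% for pairs and triplets and 16.005% for single regions. The KLF order by class was thus not confined to the accessible sites. The CTCF motif was in 0.146% (2 of 1374), 0.114% (7 of 6161) and 0.115% (14 of 12165) of those flanking windows. These matches are too few to show whether the flanks differ by class.

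**Figure D4:**
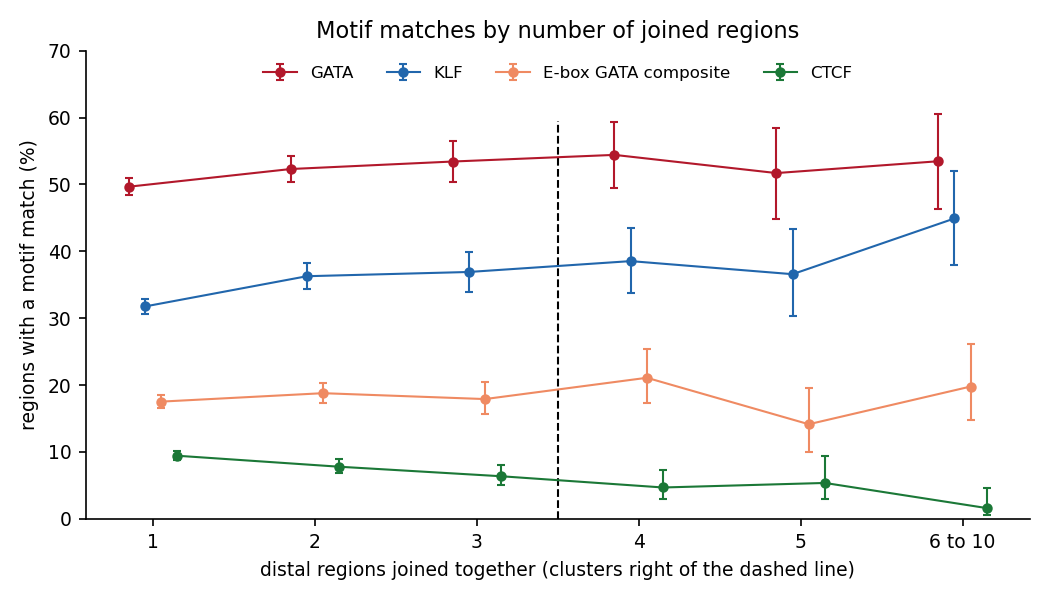
Share of distal regions (%) with a motif match within 100 bp of the summit, by the number of regions joined, with 95% Wilson intervals; clusters are right of the dashed line. CTCF (green) went from 9.44% in single regions to 1.60% in clusters of 6 to 10, KLF (blue) from 31.8% to 44.9%, and GATA (red) and the composite (orange) stayed near 50.9% and 18%, their shares over all distal regions.

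These KLF and CTCF differences from single regions held among regions that each replicate called but not among clusters rebuilt from each replicate. Among conservative-list regions also called in a replicate, CTCF was in 3.19% ± 0.0635 of members and 6.97% ± 0.0981 of single regions (SD, n = 2), and KLF was in 40.2% ± 1.59 and 36.7% ± 1.06. Called pairs and triplets had CTCF in 5.43% ± 0.0761 and KLF in 39.2% ± 0.00361, the KLF share being close to that of members. These shares rest on the same classes of region as before. In clusters built from each replicate's own list CTCF was in 5.28% ± 2.14 of regions, against 7.07% ± 0.465 of single ones, and KLF in 36.0% ± 2.87 against 35.7% ± 0.993, so neither difference exceeded the replicate spread. Pairs and triplets built in the same way had CTCF in 4.76% ± 0.290 and KLF in 40.2% ± 1.66. Neither trait was thus particular to these rebuilt clusters. GATA was in 49.9% ± 0.679 of those clustered regions and 52.5% ± 0.575 of single ones, the reverse of the order in the conservative list. The composite was in 17.6% ± 3.13 and 20.2% ± 0.288.

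Of the remaining motifs, AP-1 (TGACTCA or TGAGTCA) was in 78 members (10.05%), against 9.27% of all distal regions. The E-box (CAGCTG or CAGATG, both strands) was in 237 (30.5%), against 31.9%, and RUNX (TGTGGT or TGCGGT) in 176 (22.7%), against 24.9%. ETS (CCGGAAG or AGGAAGT) was in 86 (11.1%), against 12.7%. For AP-1, the E-box, RUNX and ETS the share over all distal regions lay inside the 95% Wilson interval of the members. No motif of the 8 was found in 86 members (11.1%), against 10.7% of all distal regions.

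The largest cluster, Lrrc74a/Irf2bpl on chr12:86793202-86836999, lay wholly between genes, with its 10 regions 47.9 to 73.9 kb from the nearest start site. Irf2bpl encodes a transcriptional regulator that carries a RING finger. This cluster also had the largest summed signal, 89.9, with member signals from 5.79 to 12.9; the strongest member lay in the middle of the cluster. That member had signals of 13.2 in replicate 1 and 10.3 in replicate 2, and the sixth member 5.22 and 6.94. KLF boxes were in 7 of its members, GATA motifs in 4 and a composite, printed above, in 1. The widest cluster, Gm47791/Agfg1, spread 8 regions over 50.97 kb with 5 GATA motifs and 2 composites.

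**Figure D5:**
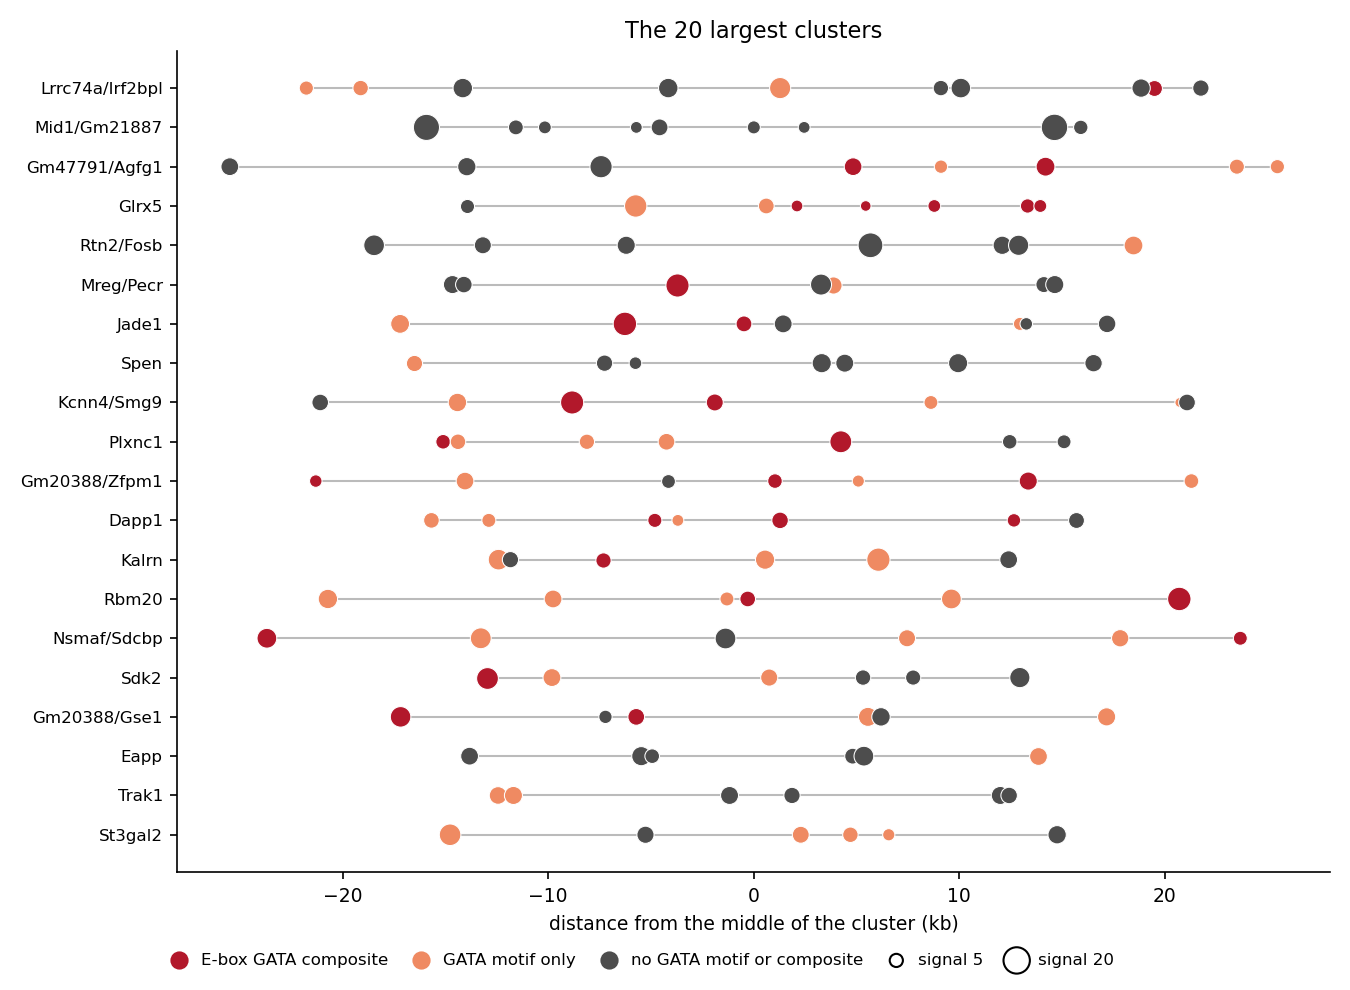
The 20 clusters with most regions, each drawn by distance from its middle (kb); point area is proportional to the peak signal, and colour shows an E-box GATA composite (red), a GATA motif only (orange) or neither (grey). Glrx5 has 5 red points, and all 9 points of Mid1/Gm21887 are grey.

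Glrx5 had the most composites of any cluster. The gene encodes glutaredoxin 5, a mitochondrial protein of iron-sulfur cluster assembly that developing red cells need for heme synthesis. Its cluster of 8 regions, chr12:105011494-105040117, had 5 members between genes and 3 in introns of Glrx5, and a promoter region lay inside the span. Members were 1.41 to 10.3 kb from the nearest start site, which was that of Syne3 for some and of Glrx5 for others. The strongest member, at chr12:105019286-105020284, had a signal of 13.95 in replicate 1 and 12.7 in replicate 2 and no composite. The 5 composite-bearing members had lower signals in both replicates, from 3.32 to 5.29 in replicate 1 and from 3.15 to 5.94 in replicate 2. GATA motifs were in 7 of the 8. One composite-bearing member, the fifth, overlapped the annotated small RNA genes Mir3069 and Scarna13.

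Zfpm1 encodes FOG1, the cofactor through which GATA1 represses and activates many of its targets. All 7 members of its cluster, chr8:122286895-122330270, lay in its introns, which the annotation shares with the readthrough gene Gm20388. GATA motifs were in 6 members and composites in 3. The member whose composite is printed above had signals of 9.68 in replicate 1 and 8.04 in replicate 2, and the first member 4.83 and 3.70. The replicates differed by less than the members did, and 3 of the 7 were called in both lists. Lmo2, whose protein bridges TAL1 and LDB1 in the GATA1 complex, had 4 intergenic members 61.0 to 69.8 kb upstream, all with a GATA motif and none with a composite. Mafk encodes a small MAF partner of NF-E2 and Klf13 a KLF-family factor. The Mafk cluster, shared with Tmem184a, had 5 members with 2 composites, and that of Klf13 had 4 with 1 and a summed signal of only 20.4.

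Kcnn4 encodes the calcium-activated potassium channel of the red cell membrane, known as the Gardos channel. Its cluster with Smg9, a factor of nonsense-mediated decay, held 7 regions over 42.2 kb, 5 of them with a GATA motif and 2 with a composite. The intronic member printed above was the strongest, at 14.8 in replicate 1 and 13.9 in replicate 2. The next strongest, also in Kcnn4, had 9.53 and 8.93. Gypc, which encodes glycophorin C of the red cell surface, had 5 intronic members on chromosome 18, from 4.28 to 9.73 in replicate 1 and from 4.87 to 9.72 in replicate 2. GATA motifs were in 4 of them, and the weakest in replicate 1 held the only composite.

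Beta-globin gave the textbook case. Its locus control region, upstream of the embryonic gene Hbb-y and next to the olfactory receptor gene Olfr66, formed a cluster of 4 regions over 11.6 kb, chr7:103859117-103871049. The members had signals of 7.28, 12.48, 7.05 and 9.27 in replicate 1 and of 6.80, 11.2, 6.24 and 8.84 in replicate 2, in genomic order. The second member was the strongest in both replicates and was the only one with no GATA motif. All 4 had a KLF box, and the first and the fourth a composite. The alpha-globin counterpart, in and beside Nprl3, falls outside the rule for named clusters and was picked out after its values were seen: 5 regions over 23.4 kb, all with a GATA motif, 2 with a composite and none with a KLF box. Their signals ran from 5.93 to 14.5 in replicate 1 and from 7.01 to 12.2 in replicate 2.

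Clusters at other genes of the erythroid lists were few. Of 21911 protein-coding genes, 230 (1.05%) hosted a member or had the start site nearest to one. Among erythroid transcription factors and cofactors it was 4 of 20, Zfpm1, Lmo2, Klf13 and Mafk. Among heme genes it was 2 of 15, Abcb10, a mitochondrial transporter of the erythroid lineage, and Fech, the enzyme that inserts iron into heme. Both of these clusters had 4 members, each with a GATA motif. None of the clusters at Zfpm1, Lmo2, Klf13, Mafk, Abcb10, Fech and Hbb-y was rebuilt from the list of replicate 1 or from that of replicate 2 alone, so these counts rest on the conservative list. Globin genes gave 1 of 9, red cell membrane genes 1 of 21, and receptors, iron and survival genes 1 of 16, the kinase gene Pim1, with 2 composites in 4 members, which was rebuilt in replicate 2 only. Cd34, a progenitor surface marker, was the only one of 17 progenitor genes, and its 4 members had signals no higher than 7.31. These lay 37.8 to 54.8 kb from the Cd34 start site, and all overlapped A330023F24Rik, a gene not annotated as protein-coding. The lists also differed in the share of genes with any distal region, which was 29.1% over all protein-coding genes. It was 80% for the transcription factors, 60% for heme, 22.2% for globin and 85.7% for membrane genes. For receptors, iron and survival it was 81.25% and for progenitor genes 64.7%.

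Lists of other cell types gave 0 of 15 megakaryocyte genes, 0 of 20 myeloid and mast cell genes, 0 of 20 lymphoid genes, 0 of 15 liver genes and 0 of 15 neuron genes. With lists this short, 0 of 15 leaves an upper Wilson bound of 20.4%. In the same order, 46.7%, 30%, 20%, 20% and 26.7% of these genes had any distal region. Each of these shares was lower than those of the erythroid lists other than globin. The number of distal regions per gene was not compared. Muscle gave 1 of 15, Mef2c, a transcription factor also used outside muscle, whose 4 members had no GATA motif, composite or KLF box. Actb, the gene of cytoskeletal beta-actin and a housekeeping gene, was nearest to members of a cluster of 5 intergenic regions with 1 GATA motif and no composite, so the erythroid lists were not the only ones with a cluster. As most list genes have none, these counts describe where the clusters lie.

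Several of the largest clusters stood at genes outside the erythroid lists. Jade1 encodes a subunit of the HBO1 histone acetyltransferase complex, Spen a transcriptional corepressor, Plxnc1 a semaphorin receptor and Dapp1 a phosphoinositide-binding adaptor. Jade1 had 2 composites in 7 members, Plxnc1 had 2 in 7, Dapp1 had 3 in 7 and Spen had none. Rtn2/Fosb, at a reticulon gene and the gene of an AP-1 subunit, had signals of at least 8.34 in all 7 members but only 1 GATA motif. Among the clusters of 6, Rbm20, Nsmaf/Sdcbp and Gm20388/Gse1 each had 2 composites and Kalrn and Sdk2 1 each. Trak1, an adaptor for mitochondrial transport, had a KLF box in all 6 and no composite, and St3gal2, a sialyltransferase gene, had 4 GATA motifs and no composite.

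A minority of clusters lay in repeated sequence, where short reads may not be placed with certainty. Read length and filters are unknown, so the placement of reads was not tested. Matches on another chromosome, chromosome Y included, counted as elsewhere. More than 50% of the 31-base words of the window occurred elsewhere on the chromosomes in 35 members (4.51%), against 2.36% of all distal regions, and 12 clusters had such a member. In 4 clusters the mean over members passed 50%: Eapp (97.0%), Mid1/Gm21887 (95.8%), BC107364/Hfe2 (82.8%) and Olfr161 (80.4%), the last pair named for this value. Mid1/Gm21887, the second-largest cluster, had 9 members near the end of chromosome X, a mean G and C content of 67.7% and no GATA motif. Its strongest members had signals of 17.4 and 19.4 in replicate 1 and of 17.97 and 17.7 in replicate 2, while 5 of the 9 were called in neither list.

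Some of these clusters lay at small RNA genes. Distal was defined by protein-coding start sites alone, so promoters of other genes could count. An annotated snRNA, snoRNA, miRNA, rRNA, scaRNA or other small RNA gene overlapped 21 members (2.71%, 1.78 to 4.10), against 0.718% of all distal regions and 0.521% of single ones, and 18 of the 21 were in 4 clusters. Mreg/Pecr had such a gene at 7 of 7 members, Rdm1/Arl4d at 5 of 5, Eapp at 4 of 6 and BC107364/Hfe2 at 2 of 5, all annotated as snRNA genes, which encode the RNA of the spliceosome. Where start sites of all transcripts were used in place of protein-coding ones, there were 113 clusters with 521 regions.

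The tightest cluster was of another kind. Near no gene, with Tyrp1 the nearest at 829 to 831 kb, 6 regions stood within 2.03 kb at chr4:80002448-80005245. Their mean G and C content was 36.3%, every member held 31-base words that also occur in the mitochondrial genome, on average 22.2% of the window, and each overlapped an annotated processed pseudogene (Gm11407, Gm11408 or Gm11410). The signals were nearly equal between the replicates: from 3.95 to 9.51 in replicate 1 and from 3.59 to 9.37 in replicate 2. No KLF box or composite was found there. In all, 6 of 776 members (0.773%) had any mitochondrial word, the 6 of this cluster, against 0.236% of all distal regions. The part of mitochondrial reads in these values was not tested.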

How the data were processed

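Peak lists of 2 ATAC-seq libraries of 1 group were read, 7 lists in all, on mm10 per the labels. For the aligner, the peak caller, read filters and any shift of read ends, details remain not given in the sources used here. The signal of each peak was deposited by the authors with no stated scale, and the deposited −log10 p is the authors' value for the peak. Each thresholded list passed an IDR of 0.05, per the file names and the deposited ranked lists. No depth is given, so intervals (95% Wilson) cover counting error only.

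From these lists, regions were merged, classed with GENCODE M21 and clustered as described. A member was called in a replicate where its region overlapped the replicate's list by 50% of the shorter region, and its replicate signal and −log10 p are those of the best overlapping region of that library's ranked list, which neighbouring members can share. Motifs were searched within 100 bp of the summit in the RefSeq GRCm38.p6 sequence with pysam 0.24.0 and samtools 1.23.1 under Python 3.11.15. Repeated sequence was measured as the share of 31-base words found elsewhere on the chromosomes. The code for clustering and matching was tested on simulated data.

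Clusters named are the 20 with most members (ties by summed signal), those of largest span, largest summed signal and smallest mean gap, and those whose host or nearest gene is among 216 genes of 13 lists; exceptions are said to be so. The count for the housekeeping list and 1 cluster the rule would name are not reported here. A cluster bears the protein-coding genes its members lie in, otherwise those with the nearest start site. Members and gene lists were chosen with earlier results of these data known. With 1 group and 2 samples and members chosen from the peaks, no test was made. Alternatives changed the joining distance, cluster size, distal distance, start sites, list, overlap, window, spacing and signal, or left out each replicate; leaving out repeated regions was chosen after seeing the data.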

Additional observations from a re-analysis of the deposited data

How the results depend on the processing

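The number of clusters follows the rule: against 165 clusters with 776 regions (7.33% of distal regions) there were 18 with 81 (0.765%) at a joining distance of 5 kb, 330 with 1586 (14.99%) at 20 kb, 500 with 1781 (16.8%) for 3 regions or more, 28 with 187 (1.77%) for 6 or more, and 1 with 4 (0.107%) among regions above the median signal. Leaving out a replicate gave 35 to 65 clusters, 162 to 292 regions and 2.81% to 4.22%. Without repeated regions there were 155 clusters with 721 regions (6.98%), 96 of them with a composite, and 52.7% of members in introns. Start sites of all transcripts gave a share of 5.60%. Members called in both replicates were 52.9% in clusters of 6 or more and 75% above the median signal.

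GATA motifs were in 52.6% of members at 20 kb, 55.5% with all start sites, 25% above the median signal, 51.8% in the pooled pseudoreplicate list, 36.6% within 50 bp of the summit, 66.8% within 200 bp, 55.1% without repeated regions and 49.4% to 50.3% with a replicate left out. Composites were in 0% above the median signal, 10.7% within 50 bp, 24.2% within 200 bp, 9.15% at a spacing of 8 bases and 15.4% to 19.9% with a replicate left out. Clusters with a composite numbered 10 at 5 kb, 202 at 20 kb, 245 for 3 or more, 19 for 6 or more, 0 above the median signal, 61 at a spacing of 8 bases and 18 to 37 with a replicate left out. Introns held 60.4% in clusters of 6 or more, 55.5% with all start sites, 0% above the median signal and 43.8% to 48.6% with a replicate left out. The other alternatives moved these values by less than the spread between replicates or, for counts, by less than 1.5 times. Each rule changes which regions are members, so the shares are over different regions. Read depth is unknown, and a region absent from a list may be below its threshold.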
